A study of Mus musculus with 55 samples.

Results

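Figla, Sohlh1, Sohlh2, Nobox, Lhx8, Taf4b and Tbpl2, 7 genes that code for transcription factors of the oocyte, were followed by symbol through the count files of 52 single mouse oocytes. All 7 were among the 51734 genes listed in each file, and 6 passed the filter on low counts. Each library came from 1 oocyte. Fully grown oocytes (FGOs), which have ended growth and await maturation in prophase of meiosis I, were taken by needle puncture from ovaries of females 10 to 12 weeks old, and cumulus cells were washed off. There were 18 wild-type FGOs, 8 FGOs homozygous for the D124A substitution in the ADD domain of DNMT3L with wild-type Dnmt3a (DNMT3L-ADD), 8 homozygous for the ADA allele, aspartic acid to alanine, in the ADD domain of DNMT3A with wild-type Dnmt3L (DNMT3A-ADD), 8 homozygous for both (double mutant), and 10 wild-type MII oocytes, the stage reached after maturation, for which the labels give no age. Per the study's methods, MII donors were injected with inhibin antiserum and then chorionic gonadotropin, and their ages reached higher than those of FGO donors, so stage, hormone treatment and age cannot be told apart. The substitutions were in the germline, and the lines were backcrossed to C57BL/6J. The number of females behind each group was not given in the sources used here, so p-values measure the spread between oocytes, some of which may share a mother.

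The ADD domain of a DNA methyltransferase of this family reads the unmodified tail of histone H3, and DNMT3L is the cofactor that DNMT3A needs in the growing oocyte. The 7 factors act before and during that growth. FIGLA, SOHLH1 and SOHLH2 are basic helix-loop-helix proteins that bind E-boxes, NOBOX and LHX8 are homeobox proteins of the primordial and primary follicle, TAF4B is a germ cell form of the TFIID subunit TAF4, and TBPL2 (TRF3) takes the place of the TATA-binding protein in growing oocytes. Loss of any of the first 5 in mice depletes oocytes around birth or in early follicles, and females without Taf4b or Tbpl2 are infertile. Fully grown oocytes and MII oocytes are known to transcribe little and to hold stored mRNA.

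The promoters of 4 of the genes are shown because they differ in what the libraries held: Figla and Tbpl2, whose levels went together over oocytes, Nobox, the most abundant of the 7 per length, and Sohlh1, which was near the limit of detection. Each line gives the 250 bases before the RefSeq transcription start (GRCm38.p6, the mm10 assembly) on the strand of the gene, 5′ to 3′, with matches to the E-box CANNTG in capitals; the same letters are read on both strands. The windows are chr6:86016941-86017190 (plus strand) for Figla, chr2:24096596-24096845 (minus) for Tbpl2, chr6:43309555-43309804 (minus) for Nobox and chr2:25847249-25847498 (minus) for Sohlh1.
Figla: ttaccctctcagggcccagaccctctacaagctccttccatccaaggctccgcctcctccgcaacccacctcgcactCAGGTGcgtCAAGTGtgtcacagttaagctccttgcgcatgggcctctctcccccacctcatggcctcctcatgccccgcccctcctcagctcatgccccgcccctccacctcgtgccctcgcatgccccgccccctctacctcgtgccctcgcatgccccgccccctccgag
Tbpl2: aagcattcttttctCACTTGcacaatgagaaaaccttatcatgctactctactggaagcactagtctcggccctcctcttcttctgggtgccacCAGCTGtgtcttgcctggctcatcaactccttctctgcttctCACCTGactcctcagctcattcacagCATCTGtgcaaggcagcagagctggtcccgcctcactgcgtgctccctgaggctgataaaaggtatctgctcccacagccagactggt
Nobox: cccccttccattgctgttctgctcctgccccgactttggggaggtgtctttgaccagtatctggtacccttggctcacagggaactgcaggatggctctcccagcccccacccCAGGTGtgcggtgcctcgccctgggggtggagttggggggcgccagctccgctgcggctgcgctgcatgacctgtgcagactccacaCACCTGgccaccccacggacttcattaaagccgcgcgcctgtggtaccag
Sohlh1: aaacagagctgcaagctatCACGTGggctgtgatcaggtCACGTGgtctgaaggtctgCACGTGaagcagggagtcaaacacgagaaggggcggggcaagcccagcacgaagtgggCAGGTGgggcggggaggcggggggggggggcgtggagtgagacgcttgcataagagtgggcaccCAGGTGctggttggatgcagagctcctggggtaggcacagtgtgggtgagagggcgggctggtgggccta
The Figla window held 2 matches (starting 173 and 164 bases before the start), that of Tbpl2 held 4, that of Nobox 2 and that of Sohlh1 5. The windows not shown held 1 (Sohlh2) and 0 (Lhx8). The E-box letters occurred in 66.2% of the 32851 RefSeq promoter windows of this length. The NOBOX element TAATTG, in 7.17% of the windows, and the TATA box TATAAA, in 12.4%, had no match on either strand in these 4, nor in the windows of Sohlh2 and Lhx8. The windows of Tbpl2, Nobox and Sohlh1 end where the gene model of the files begins, whereas that of Figla lies inside its model, at the start of a second transcript.

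By mean level per length, the order of the 7 genes was the same in all 5 groups, except that Tbpl2 stood above Taf4b in wild-type and double mutant FGOs and below it in the other 3 groups. By the median Tbpl2 stood below Taf4b there too, at 9.35 against 9.59 FPKM in wild-type and 16.6 against 17.2 in double mutant FGOs. In wild-type FGOs the mean level was 238 ± 21.9 FPKM for Nobox, 60.9 ± 3.26 for Lhx8, 29.9 ± 7.53 for Figla, 12.5 ± 7.05 for Tbpl2, 11.3 ± 4.17 for Taf4b, 4.02 ± 1.05 for Sohlh2 and 0.088 for Sohlh1 (SD, n = 18). Nobox, Lhx8 and Figla stood apart by more than their spread, and Tbpl2 and Taf4b, neighbours in this order, did not. By mean FPKM Nobox ranked 98 among 38217 genes with a count in wild-type FGOs, Lhx8 ranked 783 and Figla 1976. In MII oocytes the means were 240.3 ± 14.3 FPKM for Nobox, 65.2 ± 3.03 for Lhx8, 20.6 ± 2.54 for Figla, 8.77 ± 0.748 for Taf4b, 8.24 ± 1.12 for Tbpl2 and 5.07 ± 1.10 for Sohlh2 (SD, n = 10), with Taf4b and Tbpl2 again within each other's spread.

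The genes differed in their spread between oocytes. Lhx8 varied least, with a coefficient of variation of 5.35% over the 18 wild-type FGOs, followed by Nobox at 9.19%, Figla at 25.1%, Sohlh2 at 26.2%, Taf4b at 36.9% and Tbpl2 at 56.5%. The highest wild-type FGO held 3.85 times the Tbpl2 of the lowest on the CPM scale, and 1.25 times the Lhx8. In MII oocytes the coefficient was 13.6% for Tbpl2 and 8.53% for Taf4b.

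**Figure D1:**
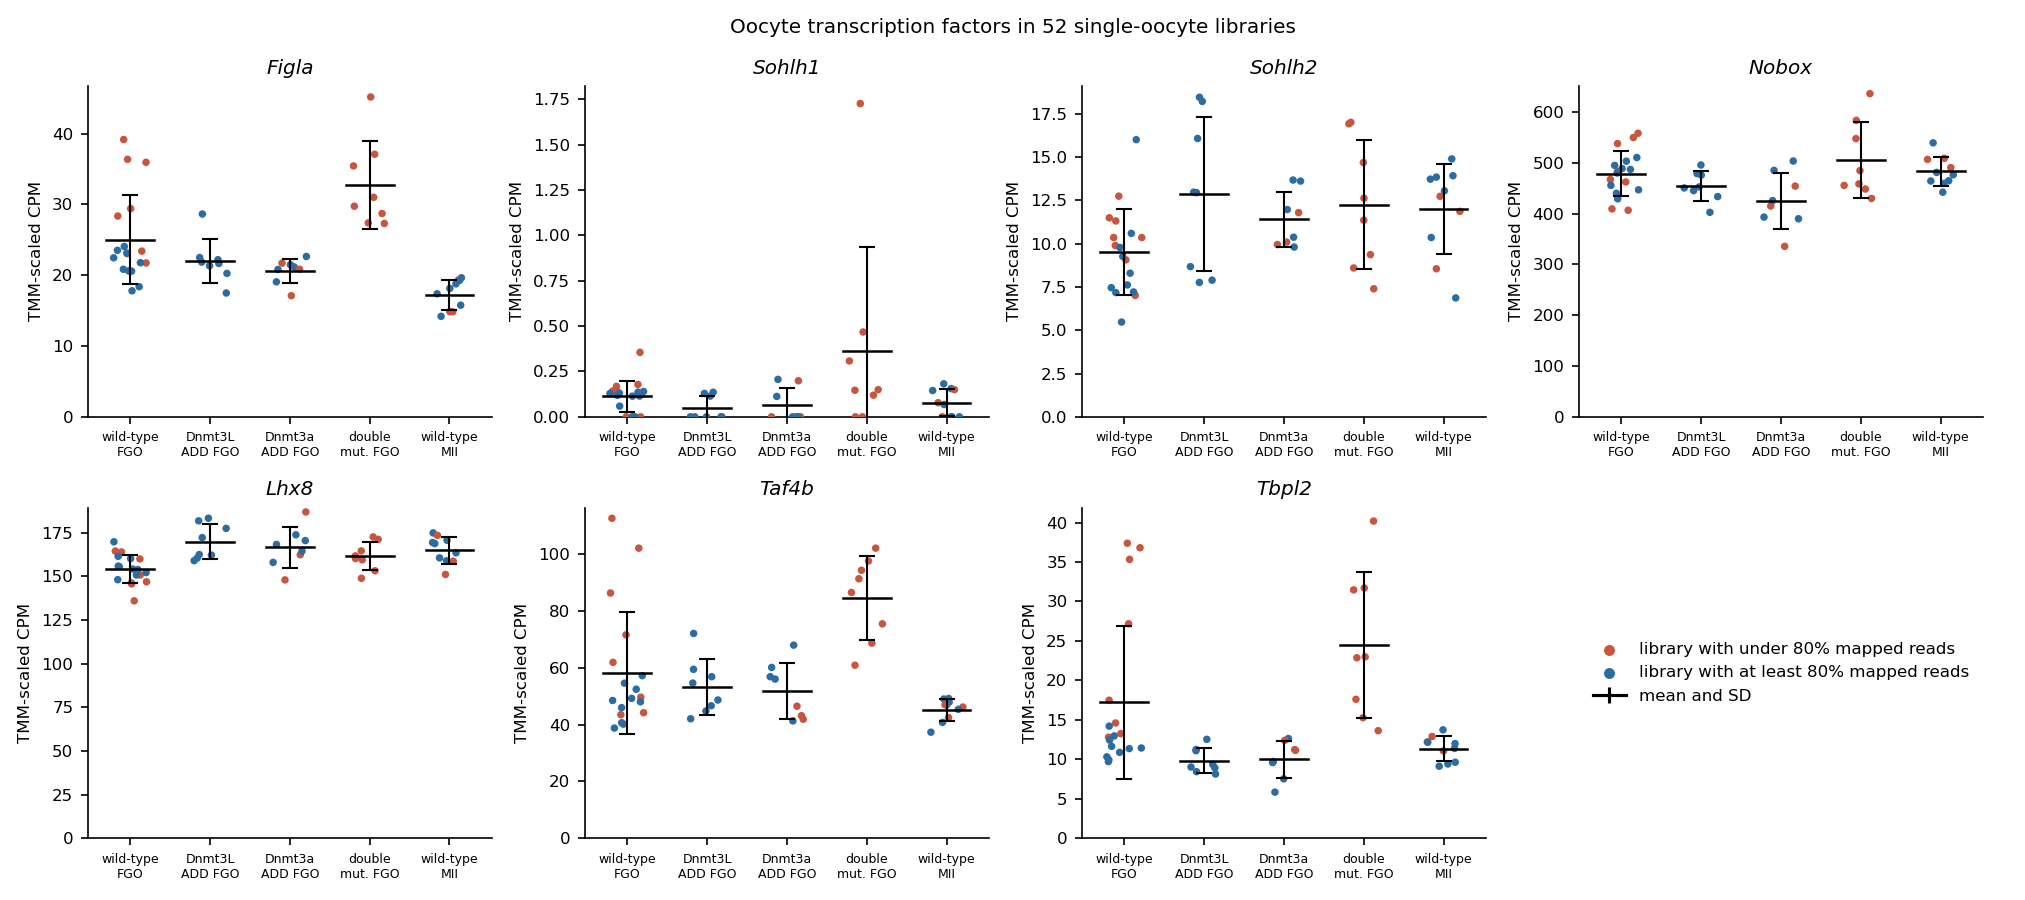
TMM-scaled CPM of each gene (vertical axis, from 0) in 52 single oocytes of 5 groups (horizontal axis), with points coloured by the share of mapped reads and bars for the mean and SD. Tbpl2, Taf4b and Figla are spread widely in wild-type FGOs, with the high points in libraries under 80% mapped reads, and Lhx8 and Nobox stay in a narrower band there. All 8 double mutant libraries are under 80%.

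Library totals ran from 7832458 to 23739871 counts. The study's summary gives a share of mapped reads under 80% for 22 libraries and at least 80% for 30. The split is uneven over genotypes: 8 of 18 wild-type, 0 of 8 DNMT3L-ADD, 3 of 8 DNMT3A-ADD and all 8 double mutant FGOs were under 80%, as were 3 of 10 MII oocytes. For double mutant against DNMT3L-ADD FGOs the genotype and the set cannot be told apart, and a fit with the set as a covariate is given. The first principal component of the 42 FGOs, computed without any listed gene, took 36.9% of the variance, and 5 FGOs lay more than 1.5 SD out on it: wild-type replicates 4, 5 and 6 and double mutant replicates 4 and 7. Within the wild type, 27.7% of genes differed between the 10 libraries of at least 80% and the 8 under 80%. The summed level of 12 granulosa markers ran from 206 to 327 CPM in wild-type, 203 to 229 in double mutant and 180 to 209 in MII libraries. Of these, Amh and Inhbb were at 0 counts in all 10 MII oocytes. Nr5a2, Esr2 and Cyp19a1, the highest, had medians of 82.3, 66.8 and 25.8 CPM in wild-type FGOs and 81.8, 67.7 and 25.7 in MII oocytes. The summed level thus rests mainly on genes that were about as high in MII oocytes. Against the wild type, 2 of the 12 were lower in DNMT3L-ADD, 4 in DNMT3A-ADD and 7 in double mutant FGOs, with Inha at −1.54, −1.88 and −3.46 (log2), and 8 were lower in MII oocytes. In these comparisons 6.13%, 15.7%, 12.2% and 39.1% of all genes passed in either direction. The summed level of 8 oocyte markers ran from 5641 to 7232 CPM in wild-type, 5079 to 6644 in DNMT3L-ADD, 5107 to 6563 in DNMT3A-ADD and 6751 to 7583 in double mutant FGOs, the last above every single mutant FGO, and from 5126 to 5665 in MII oocytes. Of the 8, 3 were higher in the double mutant than in the wild type and 5 than in each single mutant, Nlrp14 was lower in both single mutants, and 1 was higher and 3 lower in MII oocytes. Between the double mutant and DNMT3A-ADD FGOs 30.9% of all genes passed, and between it and DNMT3L-ADD FGOs 24.2%. The part of the library set, of PC1, of oocyte markers and of follicle cell RNA in the differences below was not tested.

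The mutated genes themselves were close to the wild type: Dnmt3l and Dnmt3a differed by 0.19 ± 0.095 and 0.12 ± 0.052 (log2, SE) in DNMT3L-ADD FGOs and by 0.08 ± 0.096 and 0.11 ± 0.052 in DNMT3A-ADD FGOs, and by −0.06 ± 0.096 and 0.04 ± 0.053 in the double mutant, none past the test. The alleles are amino acid substitutions, so these levels do not check the labels.

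Against wild-type FGOs, few of the 6 tested factors passed in any mutant and none by more than 2-fold. A gene passed at a Benjamini-Hochberg adjusted p under 0.05 in edgeR's quasi-likelihood test over 15726 genes. In DNMT3L-ADD FGOs Lhx8 rose and Tbpl2 fell, 2 of 6, where 6.13% of all genes passed and 0.655% also exceeded 2-fold. In DNMT3A-ADD FGOs the count was again 1 higher (Lhx8) and 1 lower (Tbpl2), against 15.7% of all genes and 2.05% past 2-fold. In double mutant FGOs Figla and Taf4b rose, 2 of 6, against 12.2% and 1.65%. The median log2 difference of the 6 was −0.10 in DNMT3L-ADD, −0.17 in DNMT3A-ADD and 0.37 in double mutant FGOs, and that of all genes −0.03, −0.03 and −0.01. These 3 comparisons share the 18 wild-type FGOs.

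Between the double mutant and each single mutant 3 or 4 of 6 passed. Against DNMT3A-ADD FGOs, Figla, Nobox, Taf4b and Tbpl2 were higher in the double mutant, 4 of 6, where 30.9% of all genes passed. Against DNMT3L-ADD FGOs, Figla, Taf4b and Tbpl2 were higher, 3 of 6, where 24.2% passed. DNMT3A-ADD and DNMT3L-ADD FGOs differed in none of the 6 and in 0.0127% of genes by edgeR (2 genes), and no factor reached an unadjusted p under 0.05 or passed in DESeq2. The non-additive term, the double mutant difference minus the sum of both single mutant differences, passed for 5 of 6, 4 above 0 (Figla, Nobox, Taf4b, Tbpl2) and Lhx8 below, where 35.6% of all genes passed. With the set of mapped reads as a covariate it passed for 1 of 6, Tbpl2, where 14.2% did.

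**Figure D2:**
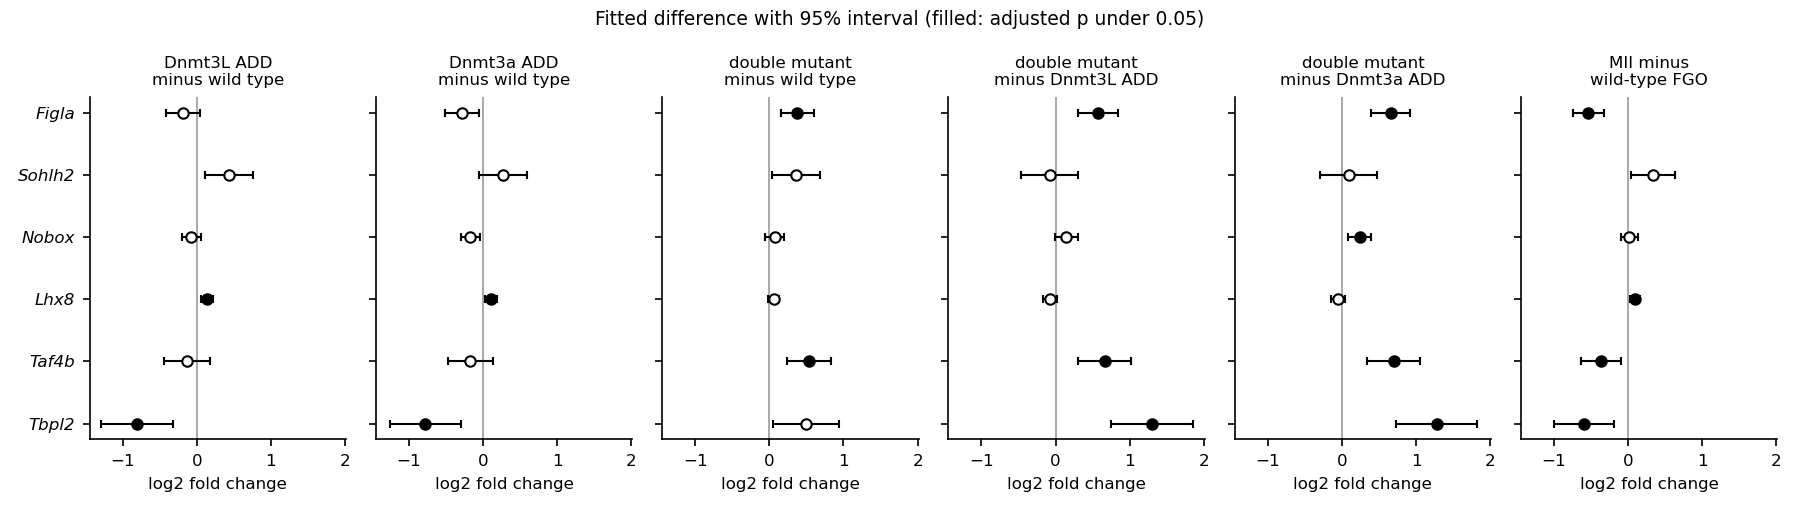
Fitted log2 fold change (horizontal axis) with its 95% interval for the 6 tested genes (vertical axis) in 6 comparisons, filled where the adjusted p was under 0.05. Tbpl2 has the widest intervals and lies below 0 in both single mutants and above 0 in all 3 double mutant panels, and Lhx8 lies close to 0 with narrow intervals.

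Among the helix-loop-helix genes, Figla (chr6:86016171-86020996, plus strand), which turns on the zona pellucida genes, moved with genotype and stage. In wild-type FGOs its level ran from 17.8 over a median of 23.1 to 39.2 TMM-scaled CPM, in DNMT3L-ADD FGOs from 17.5 over 21.8 to 28.7, in DNMT3A-ADD FGOs from 17.1 over 21.01 to 22.65 and in double mutant FGOs from 27.3 over 30.4 to 45.2. All 8 double mutant FGOs lay above the wild-type median and above every DNMT3A-ADD FGO, while the double mutant and wild-type ranges overlapped. Figla rose by 0.38 ± 0.11 on the log2 scale (SE; adjusted p = 0.0221) against the wild type, by 0.57 ± 0.13 (adjusted p = 0.00267) against DNMT3L-ADD and by 0.66 ± 0.13 (adjusted p = 0.000392) against DNMT3A-ADD FGOs, all in edgeR. The wild-type call was lost without double mutant replicate 3 (0.36), 4 (0.30) or 7 (0.35), and among libraries under 80% mapped reads the difference was 0.12 ± 0.14 (8 against 8 oocytes, adjusted p = 0.842 in edgeR). Against DNMT3A-ADD FGOs it was 0.70 ± 0.19 in that set (8 against 3, adjusted p = 0.0283 in edgeR), and against DNMT3L-ADD FGOs, with the set as a covariate, 0.25 ± 0.15, which did not pass (adjusted p = 0.426, edgeR). The single mutants differed from the wild type by −0.19 ± 0.11 and −0.28 ± 0.11 and did not pass.

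Levels are relative to TMM-scaled totals and give no amount of mRNA per oocyte. On this scale Figla was lower in MII oocytes. Their levels ran from 14.2 over 17.8 to 19.6 CPM, 5 of 10 below every wild-type FGO and all 10 below the FGO median. Figla fell by 0.54 ± 0.10 (log2, SE; adjusted p = 4.61e-05 in edgeR) from FGO to MII oocyte. It fell also by 0.27 ± 0.084 among libraries with at least 80% mapped reads (adjusted p = 0.0183), by 0.85 ± 0.19 among those under 80% (adjusted p = 0.00413) and by 0.39 ± 0.075 without the FGOs far out on PC1 (adjusted p = 6.28e-05), all in edgeR.

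Sohlh2 (chr3:55182028-55209957, plus strand), the partner of SOHLH1 in early oocytes and in spermatogonia, passed in no comparison. It ran from 5.47 over 9.52 to 16 CPM in wild-type FGOs and from 6.86 over 12.9 to 14.9 in MII oocytes. Its medians in the mutant FGOs were 12.96 (DNMT3L-ADD), 11.1 (DNMT3A-ADD) and 12.0 CPM (double mutant), all above the wild-type median, with overlapping ranges. The log2 differences from wild-type FGOs were 0.44 ± 0.16, 0.27 ± 0.16 and 0.36 ± 0.16 in these mutants and 0.33 ± 0.15 in MII oocytes, with adjusted p of 0.0922, 0.26, 0.126 and 0.065 in edgeR. Leaving out wild-type FGO replicate 18, the highest of its group, brought the DNMT3L-ADD and MII differences to 0.49 and 0.41, both past the threshold; for MII oocytes, so did leaving out wild-type replicate 2 or 7 or MII replicate 1 or 8. Among libraries of at least 80% mapped reads the differences were 0.53 ± 0.19 in DNMT3L-ADD, 0.42 ± 0.21 in DNMT3A-ADD and 0.48 ± 0.19 in MII oocytes, and among those under 80% 0.24 ± 0.17 in the double mutant, none past the test.

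Sohlh1 (chr2:25842995-25847248, minus strand), which acts before and at the primordial follicle, was at the limit of detection in both stages. It had 0 counts in 20 of 52 libraries, and 69 counts in all over the 51 libraries other than double mutant replicate 4, with at most 6 in any of them. Double mutant replicate 4 had 26 counts (1.73 CPM), and the next highest double mutant FGO was at 0.468 CPM. A library at 0 allows up to 3 counts by counting error alone. Counts of 2 were more frequent than counts of 1 in these files (133617 against 69221 pairs of gene and library), so a fragment may stand for 2 counts. Sohlh1 did not pass the filter and no fold change is given.

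Of the homeobox genes, Nobox (chr6:43303674-43309554, minus strand), which directs early oocyte genes such as Gdf9 and Pou5f1, was abundant in every oocyte. It ran from 407 over 482 to 558 CPM in wild-type FGOs, 403 over 452 to 496 in DNMT3L-ADD, 336 over 421 to 504 in DNMT3A-ADD, 430 over 472 to 636 in double mutant FGOs and 442 over 479 to 540 in MII oocytes. All 5 ranges overlapped. The 1 comparison of 2 groups it passed was the double mutant against DNMT3A-ADD FGOs, 0.24 ± 0.075 (log2, SE; adjusted p = 0.0136 in edgeR). That call did not hold without the FGOs far out on PC1 (0.14 ± 0.066, adjusted p = 0.109) or among libraries under 80% mapped reads (0.31 ± 0.13, adjusted p = 0.115, edgeR). MII oocytes differed from wild-type FGOs by 0.02 ± 0.056, with a 95% interval from −0.10 to 0.13.

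Lhx8 (chr3:154306294-154330659, minus strand), a LIM homeobox gene needed for the move from primordial to primary follicle, had the narrowest ranges. It ran from 136 over 154 to 170 CPM in wild-type FGOs, 159 over 167 to 183 in DNMT3L-ADD, 148 over 166 to 187 in DNMT3A-ADD, 149 over 161 to 173 in double mutant FGOs and 151 over 166 to 175 in MII oocytes. All 8 DNMT3L-ADD FGOs lay above the wild-type median, and the ranges overlapped. Lhx8 rose by 0.14 ± 0.039 on the log2 scale in DNMT3L-ADD FGOs (1.1-fold; adjusted p = 0.0272), by 0.11 ± 0.039 in DNMT3A-ADD FGOs (adjusted p = 0.0445) and by 0.10 ± 0.034 in MII oocytes (adjusted p = 0.0212), all in edgeR. The DNMT3A-ADD call was lost in 39 of 42 fits that left out 1 library, at 0.08 to 0.11. The DNMT3L-ADD call was lost without DNMT3L-ADD replicate 1, 4, 7 or 8, at 0.12 to 0.13, and the MII call without MII replicate 2 (0.08). Among libraries of at least 80% mapped reads Lhx8 differed by 0.12 ± 0.038 in DNMT3L-ADD (adjusted p = 0.0506) and 0.10 ± 0.044 in DNMT3A-ADD FGOs (adjusted p = 0.178), which did not pass, and by 0.10 ± 0.037 in MII oocytes (adjusted p = 0.0498), which did, in edgeR. Under 80% it was at 0.13 ± 0.074 in DNMT3A-ADD FGOs and 0.10 ± 0.074 in MII oocytes and did not pass. With library totals in place of TMM factors the 3 differences were 0.11, 0.07 and 0.03, and the last 2 no longer passed.

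Taf4b (chromosome 18, 14783245 to 14900359, plus strand), the TFIID subunit of germ cells, also differed between genotypes and stages over all libraries. Its stage difference and that of the double mutant from the wild type did not pass within the sets given below. A processed pseudogene, AC133172.1, lies in its model on the same strand outside its exons. Its level ran from 38.8 over 49.4 to 113 CPM in wild-type FGOs, 42.02 over 51.6 to 72.0 in DNMT3L-ADD, 41.3 over 51.2 to 67.9 in DNMT3A-ADD and 60.9 over 88.8 to 102 in double mutant FGOs. All 8 double mutant FGOs lay above the wild-type median and within the wild-type range. Taf4b rose in the double mutant by 0.53 ± 0.15 against the wild type (log2, SE; adjusted p = 0.016), by 0.67 ± 0.18 against DNMT3L-ADD (adjusted p = 0.00684) and by 0.70 ± 0.18 against DNMT3A-ADD FGOs (adjusted p = 0.00301), in edgeR. Among libraries under 80% mapped reads the difference from the wild type was 0.22 ± 0.18 (adjusted p = 0.758) and that from DNMT3A-ADD 0.93 ± 0.26 (8 against 3 oocytes, adjusted p = 0.0284), both in edgeR. With the set as a covariate the difference from DNMT3L-ADD FGOs was 0.34 ± 0.22 and did not pass (adjusted p = 0.448, edgeR). The single mutants differed from the wild type by −0.13 ± 0.15 and −0.17 ± 0.15, and by 0.16 ± 0.10 and 0.25 ± 0.12 among libraries with at least 80%, none past the test.

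MII oocytes held Taf4b at 37.3 over 46.5 to 49.2 CPM, all 10 below the FGO median. Taf4b fell by 0.37 ± 0.13 (log2, SE; adjusted p = 0.0239 in edgeR). The difference was −0.07 ± 0.10 among libraries with at least 80% mapped reads (adjusted p = 0.683, edgeR) and −0.14 ± 0.093 without the FGOs far out on PC1 (adjusted p = 0.276, edgeR). The call was lost without wild-type replicate 5 (−0.29) or 6 (−0.28) alone, with an adjusted p of up to 0.0576 in edgeR.

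Tbpl2 (chr2:24071721-24096595, minus strand), which stands in for TBP at the promoters of the growing oocyte, had the largest fitted difference of the 6 tested genes. It led in both single mutants against the wild type and in the double mutant against each single mutant. Its level ran from 9.72 over 12.9 to 37.4 CPM in wild-type FGOs, 8.14 over 9.19 to 12.5 in DNMT3L-ADD, 5.85 over 10.4 to 12.6 in DNMT3A-ADD and 13.6 over 22.9 to 40.2 in double mutant FGOs. The 8 double mutant FGOs lay above all 16 single mutant FGOs, and no single mutant FGO reached the wild-type median. Tbpl2 fell by 0.80 ± 0.24 on the log2 scale in DNMT3L-ADD FGOs (adjusted p = 0.0358) and by 0.78 ± 0.24 in DNMT3A-ADD FGOs (adjusted p = 0.022), in edgeR. It was 2.47-fold higher in the double mutant than in DNMT3L-ADD FGOs (log2 1.30 ± 0.27, adjusted p = 0.00107) and 2.42-fold higher than in DNMT3A-ADD FGOs (log2 1.28 ± 0.27, adjusted p = 0.000674), in edgeR. With the set as a covariate the DNMT3L-ADD difference was 0.42 ± 0.27 (adjusted p = 0.463, edgeR), and among libraries under 80% the DNMT3A-ADD difference was 1.06 ± 0.38 (8 against 3 oocytes, adjusted p = 0.0742, edgeR), so neither passed. Against the wild type the double mutant was at 0.50 ± 0.22 and did not pass (adjusted p = 0.125, edgeR); without wild-type replicate 4, 5 or 6 it was at 0.59 to 0.60 and passed.

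The wild-type controls of Tbpl2 were not alike. The 10 with at least 80% mapped reads ran from 9.72 to 14.2 CPM, and the 8 under 80% from 12.8 to 37.4. Replicates 1, 4, 5 and 6 held 27.2 to 37.4 CPM and the fifth highest 17.5. The same 4 oocytes were also the 4 highest wild-type FGOs in Taf4b (71.5 to 113 CPM) and in Figla (29.4 to 39.2 CPM). Between the sets of wild-type FGOs, 3 of 6 factors were lower in libraries of at least 80%: Tbpl2 at −1.08 ± 0.19 (log2, SE; adjusted p = 6.18e-05), Taf4b at −0.59 ± 0.14 (adjusted p = 0.00206) and Figla at −0.47 ± 0.10 (adjusted p = 0.000599), in edgeR, a comparison chosen after the data were seen. In it 27.7% of all genes passed in either direction.

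Within the sets the genotype differences of Tbpl2 from the wild type did not pass. Among libraries with at least 80% mapped reads they were −0.22 ± 0.12 in DNMT3L-ADD FGOs (8 against 10 oocytes, adjusted p = 0.299) and −0.33 ± 0.14 in DNMT3A-ADD FGOs (5 against 10, adjusted p = 0.147), in edgeR. Among those under 80% it was −1.07 ± 0.38 in DNMT3A-ADD FGOs (3 against 8, adjusted p = 0.0879) and −0.01 ± 0.26 in the double mutant (8 against 8, adjusted p = 0.996), in edgeR. Without the FGOs far out on PC1 the single mutants were at −0.44 ± 0.16 and −0.41 ± 0.16 and did not pass, and the double mutant was at 0.63 ± 0.17 and passed (adjusted p = 0.00675 in edgeR). The DNMT3L-ADD call was lost, at −0.70 to −0.83, without any 1 of wild-type replicates 1, 4, 5 and 6 and DNMT3L-ADD replicates 3 to 8, and the DNMT3A-ADD call without DNMT3A-ADD replicate 6 (−0.71).

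**Figure D3:**
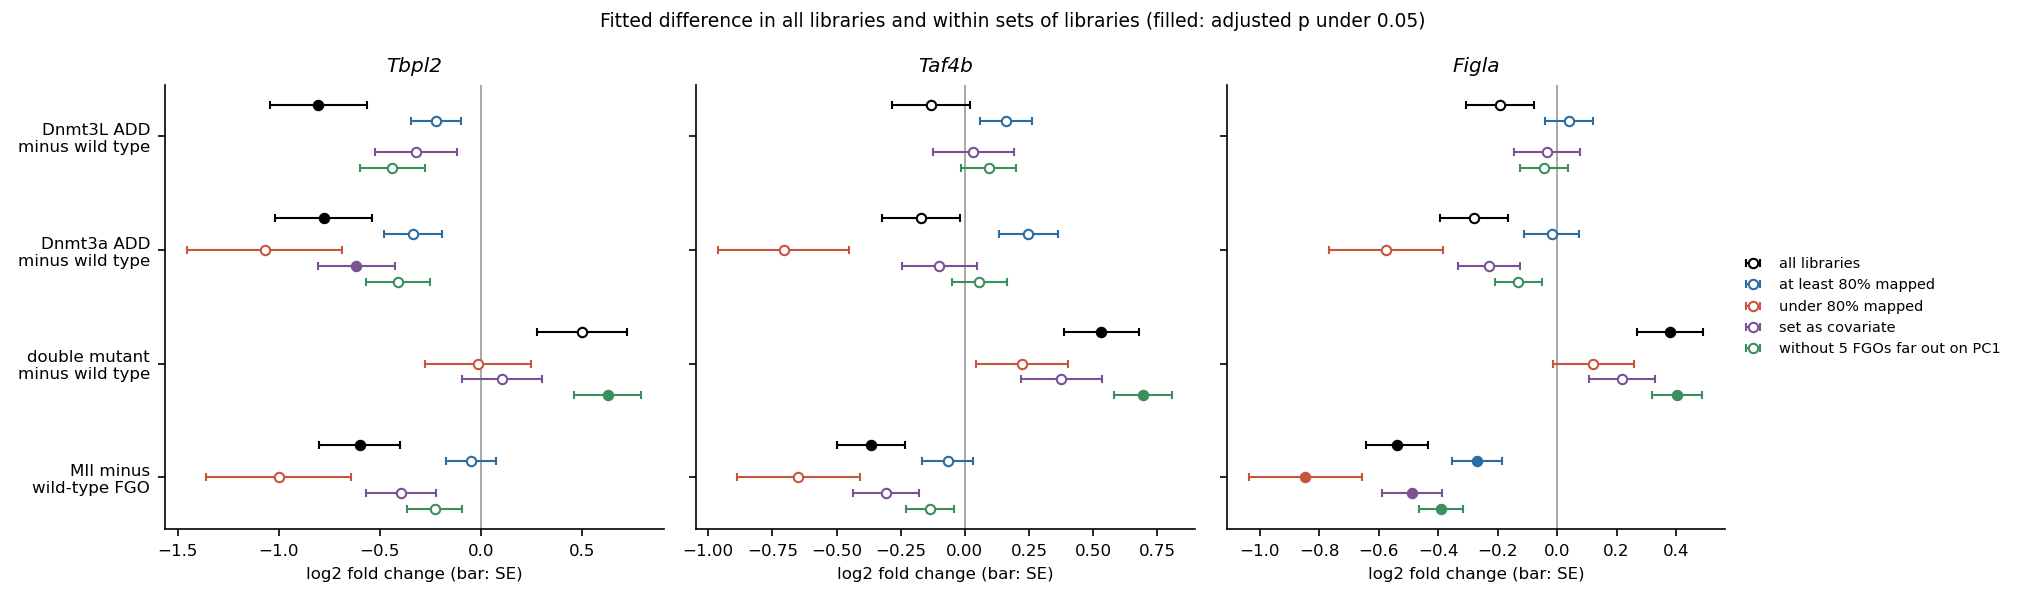
Fitted log2 fold change (horizontal axis, bar for 1 SE) of Tbpl2, Taf4b and Figla in 4 comparisons (vertical axis), over all libraries, within each set of mapped reads, with the set as a covariate and without 5 FGOs far out on PC1, filled where the adjusted p was under 0.05. The MII difference of Figla stays below 0 and filled in all 5 fits, and the Tbpl2 differences of the single mutants move toward 0 in libraries with at least 80% mapped reads.

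From FGO to MII oocyte Tbpl2 fell by 0.60 ± 0.20 (log2, SE; adjusted p = 0.0153 in edgeR), from a range of 9.72 to 37.4 CPM to one of 9.13 over 11.7 to 13.7. Among libraries with at least 80% mapped reads the difference was −0.05 ± 0.12 (adjusted p = 0.817, edgeR), with the range of wild-type FGOs at 9.72 to 14.2 CPM and of MII oocytes at 9.13 to 13.7. Without the FGOs far out on PC1 it was −0.23 ± 0.14 and did not pass. In all, 4 of 6 factors passed between the stages, Figla, Taf4b and Tbpl2 lower and Lhx8 higher, where 39.1% of 15784 genes passed and 9.2% by over 2-fold, none of the 6 among the latter.

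Tbpl2, Taf4b and Figla went together over single oocytes. Over the 52 libraries Pearson's r of log2 CPM was 0.806 between Taf4b and Figla, 0.786 between Tbpl2 and Taf4b and 0.772 between Tbpl2 and Figla. Nobox went with these 3 at 0.441 to 0.578, Lhx8 at −0.326 to −0.162, and Sohlh2 at −0.051 to 0.082. Over the 42 FGOs r with PC1 was 0.915 for Tbpl2, 0.909 for Taf4b, 0.852 for Figla, 0.745 for Nobox, −0.039 for Sohlh2 and −0.309 for Lhx8. Over the 37 FGOs not far out it was 0.804 for Tbpl2, 0.854 for Taf4b and 0.648 for Figla. Within the 18 wild-type FGOs r with PC1 was 0.925, 0.955 and 0.826 for these genes. The rank correlation (Spearman) there was lower, at 0.585, 0.794 and 0.482. The points share their libraries, so these values describe the oocytes and carry no test.

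**Figure D4:**
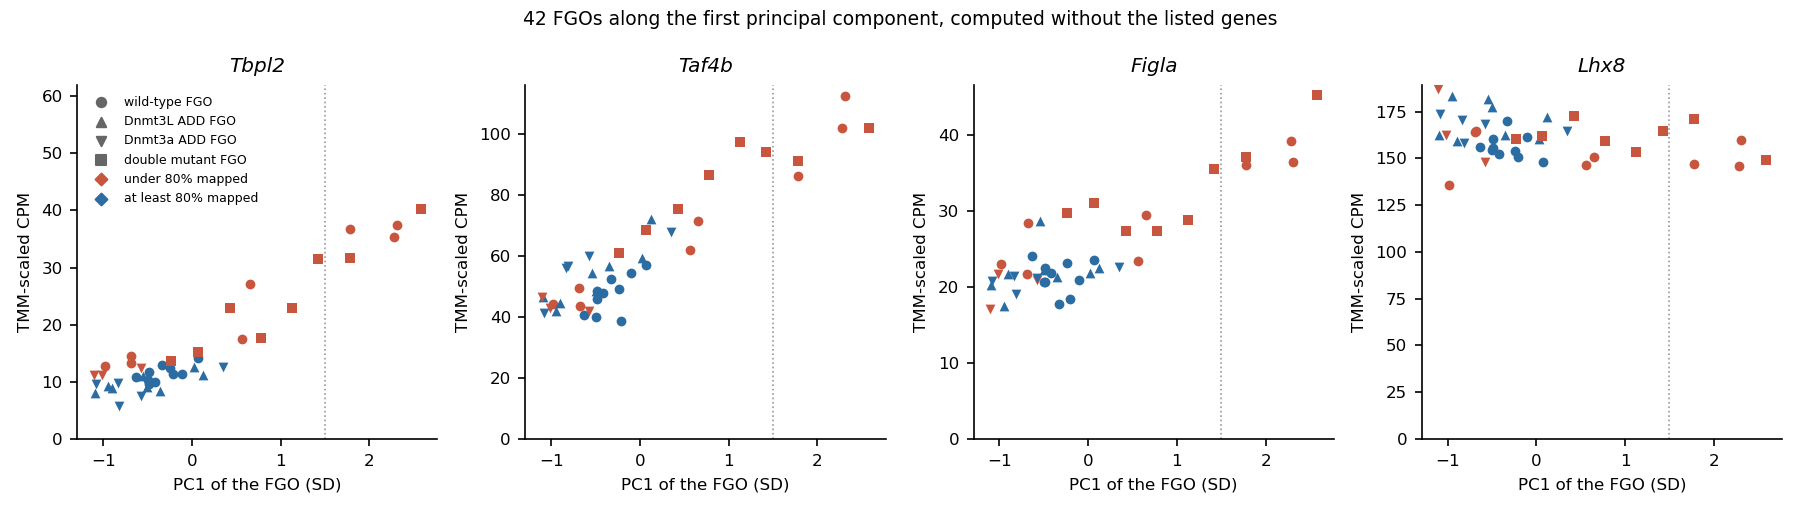
TMM-scaled CPM of 4 genes (vertical axis) against the score of each of 42 FGOs on the first principal component (horizontal axis, in SD), with shapes for genotype, colours for the share of mapped reads and a dotted line at 1.5 SD. Tbpl2, Taf4b and Figla climb along the component in both wild-type and double mutant FGOs, and Lhx8 does not.

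The genes whose levels were most like each factor over the 52 libraries were taken from all 15784 tested. For Tbpl2 they were Reep4 (r = 0.91), AC107662.1 (0.91) and Rxrb (0.90), for Taf4b Slc12a2, Zfp597 and Mgat4a (0.93 to 0.94), and for Figla Crls1, Vapa and Tmed7 (0.87 to 0.89). For Nobox they were C2cd2, Ptgfrn and Kdm1b (0.74 to 0.76), for Lhx8 Vps26a, Ranbp9 and Ints6 (0.61 to 0.64), and for Sohlh2 Ankrd66, Rnf187 and 4933406C10Rik (0.54 to 0.58). No factor was among the 3 of another.

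Partners of the factors were followed as lists. Of 8 dimer and cofactor partners (E proteins, ID proteins and LIM cofactors), 1 passed in DNMT3L-ADD FGOs (Tcf4, an E protein, −1.44 ± 0.43 on the log2 scale), 1 in DNMT3A-ADD (Id2, −0.68 ± 0.22) and 0 in double mutant FGOs (4 at an unadjusted p under 0.05 in edgeR). From FGO to MII oocyte 4 were lower and 2 higher, with Id3 at −2.74 ± 0.45, Id2 at −1.16 ± 0.24 and Id1 at −1.14 ± 0.46, ID proteins that keep E proteins from DNA. The list's median was −0.48, and that of all genes −0.05. Of all genes, 6.13%, 15.7% and 12.2% passed in these mutants, in that order, and 39.1% between the stages. Against DNMT3A-ADD FGOs the double mutant had 3 partners higher and 1 lower, with Id3 at 2.06 ± 0.48, where 30.9% of all genes passed. Against DNMT3L-ADD FGOs it also had 3 higher and 1 lower, with Id3 at 1.65 ± 0.47, where 24.2% passed. The latter comparison cannot be told apart from the library set.

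The TFIID and TFIIA subunits moved little. Of 19 listed, 18 were tested, and all differences from wild-type FGOs lay between −0.34 and 0.38 in the mutants. In DNMT3L-ADD FGOs 0 passed by edgeR (3 at an unadjusted p under 0.05), 2 were higher and 2 lower in DNMT3A-ADD FGOs (Tbp at 0.15 ± 0.049 and Taf5 at −0.13 ± 0.047 with the lowest p), and 2 were higher and 2 lower in the double mutant (Taf1 at −0.27 ± 0.068 and Taf11 at 0.22 ± 0.072). In MII oocytes 7 were higher and 2 lower, led by Taf3 (0.38 ± 0.076) and Taf4 (0.24 ± 0.060), the paralog of Taf4b. The share of all genes that passed was 6.13%, 15.7% and 12.2% in these mutants, in that order, and 39.1% in MII oocytes. Against DNMT3A-ADD FGOs the double mutant had 4 subunits higher and 3 lower, led by Taf1 (−0.38 ± 0.080) and Taf11 (0.36 ± 0.086). Against DNMT3L-ADD FGOs it had 3 higher and 2 lower, led by Taf1 (−0.32 ± 0.080) and Gtf2a2 (0.30 ± 0.083). In these 30.9% and 24.2% of all genes passed, and the latter comparison cannot be told apart from the library set.

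All 16 genes of a list known to be lowered in ovaries that lack one of the factors were tested. Against the wild type 1 was higher and 7 lower in DNMT3L-ADD FGOs, with Pou5f1 at 0.40 ± 0.071 and Zp2, a zona protein, at −0.41 ± 0.10. In DNMT3A-ADD FGOs 1 was higher and 9 lower, with Gdf9, the oocyte growth factor, at −0.36 ± 0.052 and Pou5f1 at 0.45 ± 0.071. In the double mutant 3 were higher, with Bmp15 at 0.30 ± 0.069 and Fgf8 at 0.28 ± 0.069 and none lower. The double mutant exceeded DNMT3A-ADD FGOs in 12 of 16 and DNMT3L-ADD FGOs in 11 of 16, with 1 lower each, where 30.9% and 24.2% of all genes passed in either direction and the latter comparison cannot be told apart from the library set. In MII oocytes 4 were higher and 6 lower, and Zp3 (−1.96 ± 0.073) and Zp2 (−1.47 ± 0.097), targets of FIGLA, passed 2-fold. The list's medians in these 3 mutants were −0.15, −0.23 and 0.12, beside −0.03, −0.03 and −0.01 for all genes. Against the wild type 6.13%, 15.7% and 12.2% of all genes passed in these mutants, and 39.1% in MII oocytes.

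Other transcription regulators of the oocyte (9 genes) passed in 0 cases in DNMT3L-ADD FGOs by edgeR (3 at an unadjusted p under 0.05), 1 in DNMT3A-ADD and 2 in double mutant FGOs. These were Yy1 (−0.52 ± 0.18) in DNMT3A-ADD, and Nr6a1 (0.26 ± 0.063) and Bnc1 (0.21 ± 0.066) in double mutant FGOs. Between the stages 3 were higher and 1 lower, with Foxo3 at 0.29 ± 0.065 and Foxo1 at 0.22 ± 0.052. The median of this list was 0.01, 0.09 and 0.03 in the 3 mutants and 0.04 in MII oocytes. All genes passed at a share of 6.13%, 15.7% and 12.2% in the mutants and 39.1% in MII oocytes. Against DNMT3A-ADD FGOs the double mutant had 1 of the list higher, Yy1 at 0.83 ± 0.21, and 0 lower. Against DNMT3L-ADD FGOs it had 3 higher and 1 lower, with Nr6a1 at 0.31 ± 0.075 and Yy1 at 0.82 ± 0.21. In these 30.9% and 24.2% of all genes passed, and the latter comparison cannot be told apart from the library set.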

How the data were processed

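The authors used the SMART-Seq HT kit on single oocytes, mapped the reads with STAR (mm10), obtained gene totals (featureCounts and HTSeq are named), and deposited raw counts without normalization. The annotation release, the strand setting and the treatment of reads with several positions are not given in the sources used here. The coordinates of all 7 genes equal those of GENCODE vM21. No 2 libraries of a group agreed within counting noise (lowest chi-square per degree of freedom 5.39). Allelic tables of embryos were not used.

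The main test was the quasi-likelihood test of edgeR 4.0.16 (R 4.3.3), after TMM scaling and filterByExpr with groups given and at least 10 counts asked for, with Benjamini-Hochberg adjustment across all genes. FGOs of 4 genotypes were fitted together (42 libraries, 15726 genes, biological coefficient of variation 25.2%), and MII oocytes in a fit of all 52 (15784 genes, 23.8%). These coefficients come from the common dispersion of the fit, the spread beyond counting error. CPM used TMM-scaled totals, FPKM also the gene length of the files, and correlations log2 CPM with a prior count of 2. Promoter sequences are from RefSeq (GRCm38.p6), which held 6 of the 7 genes. The method was tested on simulated data: with 15726 genes of which 200 were shifted by 1.5 (log2), the double mutant comparison found 181, with 7 wrong calls. The simulated counts had no library set or PC1 structure, and the shift was larger than any factor's difference from wild-type FGOs. So they do not give the error rate or power in the real data.

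The members, gene lists and tests were chosen with earlier results of these data known. Genes of the lists named with a fold change came, per list and comparison, from up to 3 in each direction past 2-fold or else the 2 with the lowest p. Not every such gene is printed, and the lists are not given in every comparison. Also named were the 3 genes most like each of the 7 factors, and Dnmt3a and Dnmt3l. Alternatives were RLE scaling, library totals alone, DESeq2 1.42.0, edgeR's exact test, no filter, other libraries in the fit, each set of mapped reads alone, that set as a term, a block for the replicate number and each library left out in turn. Leaving out FGOs far out on PC1 and the comparison of wild-type sets were added after seeing the data. The lists of granulosa and oocyte markers served as a check of the labelled cells. Intervals of fold changes come from the fit and cover the spread between oocytes, and limits at 0 counts cover counting error only.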

Additional observations from a re-analysis of the deposited data

Results flagged for a closer look

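In 28 checks of a gene within a group of 8 or 10 oocytes, 2 libraries stood far from their group by Dixon's test, where chance gives about 1 in 20. DNMT3L-ADD replicate 4 had the highest Figla of its group, 28.7 CPM with the next at 22.5 CPM. Double mutant replicate 4 had the highest Sohlh1, 1.73 CPM (26 counts) with the next at 0.468 CPM, and was also the FGO farthest out on PC1, at 2.58 SD.

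The interaction term in edgeR, the non-additive term above, passed for 5 of 6 genes, where 35.6% of all genes passed. The term was 2.08 on the log2 scale for Tbpl2 (adjusted p = 3.6e-05), 0.85 for Figla (adjusted p = 0.00029), 0.83 for Taf4b (adjusted p = 0.0053), 0.32 for Nobox (adjusted p = 0.0117) and −0.19 for Lhx8 (adjusted p = 0.0122). With the set of mapped reads as a covariate it was 1.04 for Tbpl2 (adjusted p = 0.0384) and did not pass for Figla (0.48), Taf4b (0.44), Nobox (0.34) or Lhx8 (−0.15). Without the FGOs far out on PC1 it was 1.47 for Tbpl2, 0.58 for Figla, 0.54 for Taf4b and −0.18 for Lhx8, which passed, and 0.18 for Nobox, which did not. The part of the library set in these terms was not tested.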

How the results depend on the processing

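The number of factors that passed, of 6, depended on which libraries entered. Without libraries of the other set, 0 passed for DNMT3L-ADD against the wild type (at least 80% mapped reads, where 7.84% of all genes did), 0 for DNMT3A-ADD in either set (6.44% under 80%, 8.59% above), 0 for the double mutant (1.04%), 2 for double mutant against DNMT3A-ADD (11%), and 1 under 80% (19.1%) or 2 at 80% and above (22.7%) for MII oocytes. With the set as a covariate, 0 passed for DNMT3L-ADD (4.27%), 0 for the double mutant against the wild type (2.61%), 0 against DNMT3L-ADD (1.18%), 1 for the non-additive term (14.2%) and 2 for MII oocytes (37.5%). Without the FGOs far out on PC1, 1 passed for DNMT3L-ADD (5.31%), 0 for DNMT3A-ADD (13.2%) and 2 for MII oocytes (31%). Without a filter 0 passed for DNMT3L-ADD (1.14%), and 1 for DNMT3A-ADD without a filter (5.01%), by library totals (15.3%) or by the exact test (16.6%). Leaving out 1 library at a time gave 0 to 3 for DNMT3L-ADD, 0 to 2 for DNMT3A-ADD, 1 to 3 for the double mutant and 3 to 5 for MII oocytes, and 4, 3, 0 and 5 in every such fit for double mutant against DNMT3A-ADD, against DNMT3L-ADD, between the single mutants and for the non-additive term. In the main fits of these comparisons, in that order, 6.13%, 15.7%, 12.2%, 39.1%, 30.9%, 24.2%, 0.0127% and 35.6% of all genes passed. With the replicate number as a block, the counts were 3 and 4 for the single mutants (18% and 26.1%), 0 for the double mutant (1.44%), 4 and 3 for it against DNMT3A-ADD and DNMT3L-ADD, 0 between these, 5 for the non-additive term and 3 for MII oocytes. For the comparisons given here without a share, 30.9%, 24.2%, 0.0127%, 35.6% and 39.1% of all genes passed in the main fits, in that order. The replicate numbers did not pair the oocytes (82 pairs, r from −0.514 to 0.468, 14 over 0.1). Among FGOs only the wild type had replicates 9 to 18, which the block left without a mutant partner. Under the block, mutant FGOs were thus set against wild-type replicates 1 to 8, all under 80% mapped reads. For DNMT3L-ADD, with no library under 80%, genotype and set cannot be told apart in that fit. The cause of the changes in these counts was not tested.

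Values that changed sign (log2) had not passed. In libraries of at least 80% these were Figla (0.040) and Taf4b (0.16) in DNMT3L-ADD, Taf4b (0.25) in DNMT3A-ADD, and Tbpl2 (−0.11) and Taf4b (0.088) between the single mutants. Under 80% it was Tbpl2 in the double mutant (−0.014). With the covariate they were Taf4b in DNMT3L-ADD (0.032) and Tbpl2 between the single mutants (−0.30), and without the FGOs far out on PC1 Taf4b in DNMT3L-ADD (0.093) and DNMT3A-ADD (0.057). By library totals they were Lhx8 in double mutant against DNMT3A-ADD (0.0062) and Nobox in MII oocytes (−0.056), and under the block Tbpl2 in the double mutant (−0.0044) and Nobox in MII oocytes (−0.0038). With 1 library left out, Sohlh2 in double mutant against DNMT3L-ADD ran from −0.15 to 0.014, Tbpl2 and Taf4b between the single mutants from −0.036 to 0.11 and from −0.11 to 0.036, and Nobox in MII oocytes from −0.0036 to 0.036. Sohlh1 was left untested by its counts of 0 to 26.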
